A study of Xenopus laevis with 31 samples.

Results

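The probe sets described here are 125 transcripts of the Xenopus laevis gastrula that were lower after injection of Sox17 morpholinos and showed no strong difference between the vegetal and animal ends of the embryo. They were chosen from 15491 probe sets by 3 limits on log2 intensity. The mean of the Sox17-MO arrays lay at least 0.75 below the mean of the stage 11 controls, the highest Sox17-MO array lay below the lowest control array, and vegetal and animal cap explants differed by less than 1. Because these values chose the probe sets, the Sox17-MO difference is given below as a description without a test. No table used here gives a gene for a probe set. Each is therefore named by its array identifier, and neither the targeted genes nor markers of the tissues were analysed here.

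Sox17 proteins are HMG-box transcription factors that are central to endoderm formation in vertebrates. In the frog, nodal signals in the vegetal cells switch on genes for homeodomain factors such as Mixer and for Sox17, and these act on endodermal genes, while the animal cap gives rise to ectoderm and the equatorial belt between them mainly to mesoderm. Sox17 also binds beta-catenin, the effector of Wnt signalling. A morpholino is an antisense oligonucleotide that blocks translation or splicing of its target RNA and need not change the level of that RNA.

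The study measured 31 arrays, each from about 20 pooled sibling embryos or about 50 explants, to ask how endodermal transcripts depend on nodal signalling, Mixer and Sox17. Sox17-MO embryos (n = 3) received morpholinos to Sox17a1, Sox17a2 and Sox17b, at 20 ng each, by vegetal injection at the 2-cell stage. Cerberus-Short embryos (n = 3) received 1 ng of RNA for a secreted nodal inhibitor, and Mixer-MO embryos (n = 2) received 40 ng of a Mixer morpholino by the same route. The title of the first Mixer-MO array names 32 ng instead. All 3 groups were collected at stage 11, as were the whole-embryo controls (n = 9), for which the labels give no injection and the title of replicate 8 marks it as not injected. The labels name no group that received a control morpholino or control RNA. Vegetal (n = 2) and equatorial (n = 2) explants were also of stage 11, and animal caps (n = 3) were cut at stage 9 and profiled at stage 11. Eggs (n = 3) and stage 18 whole embryos (n = 4) framed the gastrula. Median intensity per array ran from 65.5 to 77.2. Precision is set by how many arrays each group has. In pooled embryos, fewer cells of a type and less RNA per cell cannot be told apart. Most letters in the array titles recur across groups, and each Sox17-MO array shares its letter (C, f or G) with 1 control array. Letter L marks all 3 eggs and no other array.

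Falls with the Sox17 morpholinos were moderate, and most of these transcripts had a control level above the median of the array. The median log2 difference from controls was -1.03, which is a 2.04-fold lower level, and the range ran from -1.74 to -0.75. At least 2-fold falls were seen for 69 of the 125, and 7 fell by 1.5 or more on the log2 scale. The median control level was 7.70 on the log2 scale, against 6.18 over all probe sets, and 14 members lay below 6 (11.2%, against 47.2% of all). Whether the rule itself favours brighter probe sets was not tested. Only 1.10% of all 15491 probe sets (171) met both Sox17-MO limits. The same size and separation in the upward direction was met by 0.368%. Of the 171, 125 are described here, 30 were higher in vegetal than in cap explants by at least 1 and 16 were lower by at least 1. The members just inside the limit were at -0.7534 and -0.7616, and the nearest separated probe sets outside it at -0.7447 and -0.7441.

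**Figure D1:**
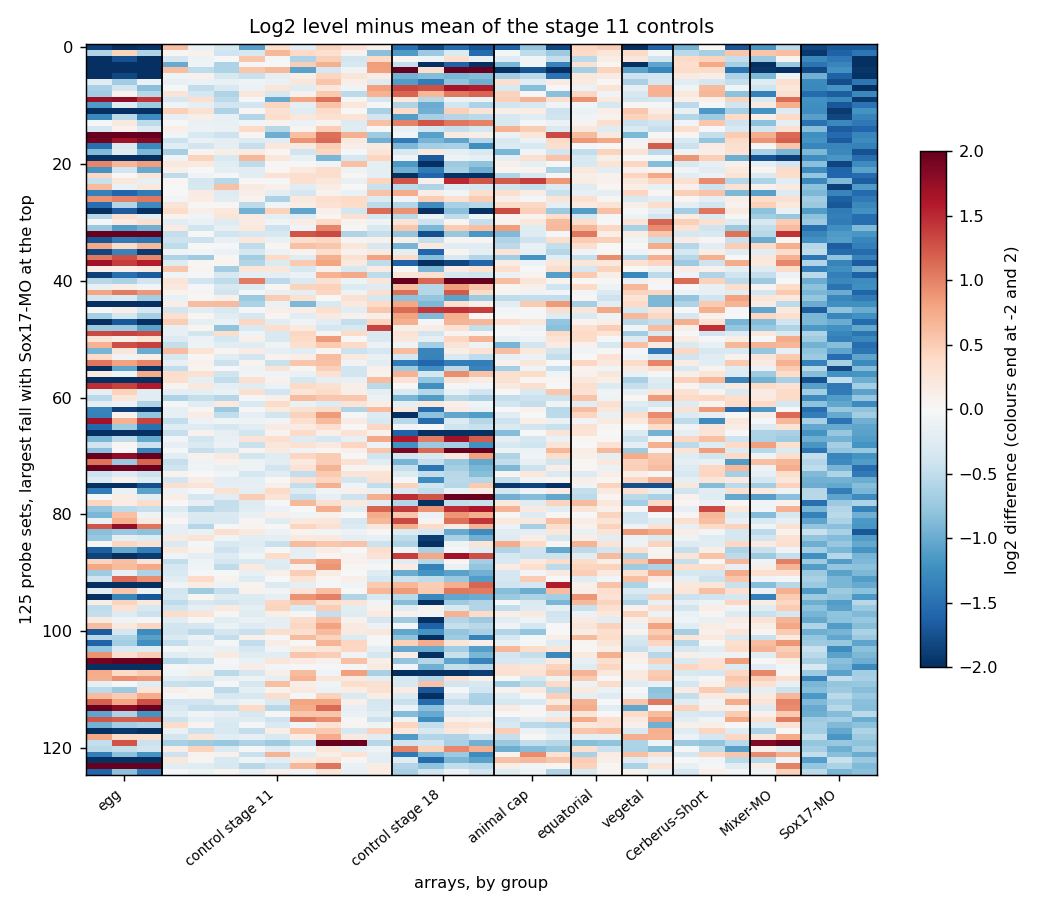
Log2 level of each of the 125 probe sets (rows, largest fall with Sox17-MO at the top) on each of the 31 arrays (columns, by group), as the difference from the mean of the 9 stage 11 controls, with colours ending at -2 and 2. The 3 Sox17-MO columns are blue throughout, as the choice requires, while the Cerberus-Short, Mixer-MO and explant columns are mostly pale and the egg and stage 18 columns hold strong rows in both directions.

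Xl.7183.1.S1_at had the largest fall among members with a control level of 6 or more. Its intensities were 21.4, 26.8 and 30.1 in the Sox17-MO arrays, and in controls the lowest was 45.7, the median 86.3 and the highest 130.1. That is 3.17-fold lower, and the groups do not overlap, by the choice of members. In Cerberus-Short embryos the values were 56.4, 51.65 and 120.1, and in Mixer-MO embryos 120.7 and 123.9, all inside the control range. Among the other groups stage 18 embryos came nearest, with a lowest value of 28.1. Xl.2686.1.S1_at was 3.16-fold lower, at 71.2, 65.2 and 36.4 with Sox17-MO against a lowest of 114.6, a median of 172.9 and a highest of 257.9 in controls. Its eggs held 39.7, 51.8 and 42.2, so that the Sox17-MO embryos stood nearer to the egg than to the control gastrula. Its Cerberus-Short values were 229.3, 238.4 and 126.0, again inside the control range, and 1 of the 2 Mixer-MO values, 104.6 and 182.4, lay just below it. The largest fall of all was that of Xl.24337.1.A1_at, at 8.82, 9.56 and 9.58 against a control range of 14.6 to 46.9. These values are low and no background estimate was used here, so the size of this fall is uncertain. The lowest decoded intensity of the tested probe sets, 3.52, is bounded by the 3.5 limit of the decoding.

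**Figure D2:**
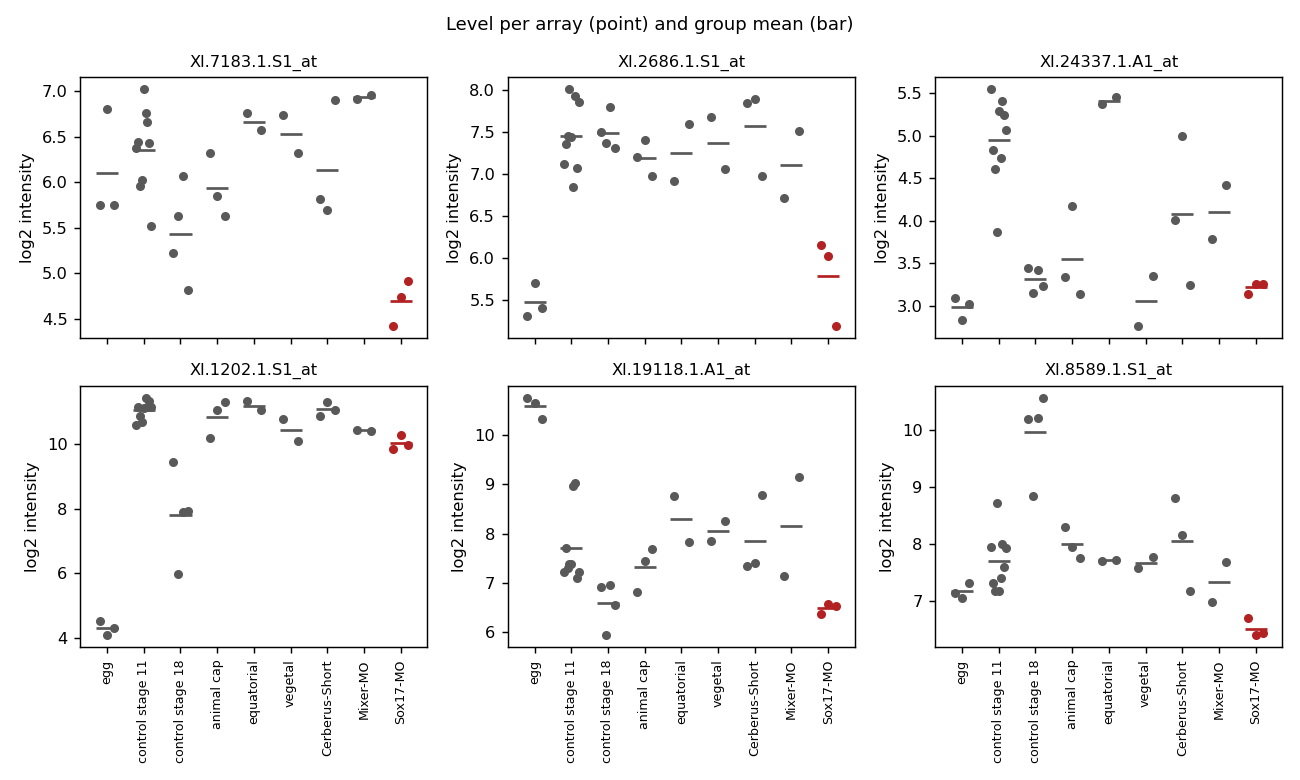
Log2 intensity of 6 members on every array (points) with group means (bars), with Sox17-MO in red. Sox17-MO arrays lie below all 9 controls in each panel, and the egg and stage 18 levels range from far above to far below the gastrula.

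The choice of members fixes a fall in each pair of arrays that share a title letter, and its size is given as a description. In the f pair all 125 members were lower in the Sox17-MO array, with a median log2 difference of -1.08. The median was -1.12 in the G pair and -0.72 in the C pair, and the sign is fixed by the choice in all 3. At least 0.75 was reached by 99, 97 and 57 members in the f, G and C pairs. Shares over all probe sets were not taken for these pairs, so the counts are not read as a trait of the members. The C pair therefore had the smallest differences, and its control also had the lowest mean member level of the 9. The mean log2 level of the 125 members relative to the control mean, called the member score here, was -1.08 ± 0.10 (SD, n = 3) in Sox17-MO embryos and 0.00 ± 0.18 (SD, n = 9) in controls. The Sox17-MO scores were -0.96, -1.11 and -1.16, and the control scores had a lowest value of -0.21, a median of -0.03 and a highest of 0.38.

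Among the stage 11 arrays other than Sox17-MO, a measure of RNA quality tended to rise with this score, though no correlation was computed. The part of RNA quality in the Sox17-MO fall was not tested. The GAPDH 3' minus 5' log2 difference, which grows as RNA is degraded or incompletely copied, was 0.92, 1.80 and 1.97 in the Sox17-MO arrays and ran from 1.65 to 3.90 in controls. The control with the highest member score, replicate 7 of letter J, also had the highest GAPDH difference. For beta-actin the range was -3.38 to -2.27 in Sox17-MO and -3.71 to 0.90 in controls. The 7 other stage 11 arrays with a GAPDH difference of 1.97 or less had member scores from -0.21 to -0.08, above the 3 Sox17-MO scores. Control replicates 2, 3 and 4 are among these 7, and the choice of members fixes them above Sox17-MO. The GAPDH difference of Sox17-MO replicate 1, at 0.92, lay below those of all 7 arrays, and its score of -0.96 was the highest of the 3. Nothing about the cause of the fall is read from these scores.

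**Figure D3:**
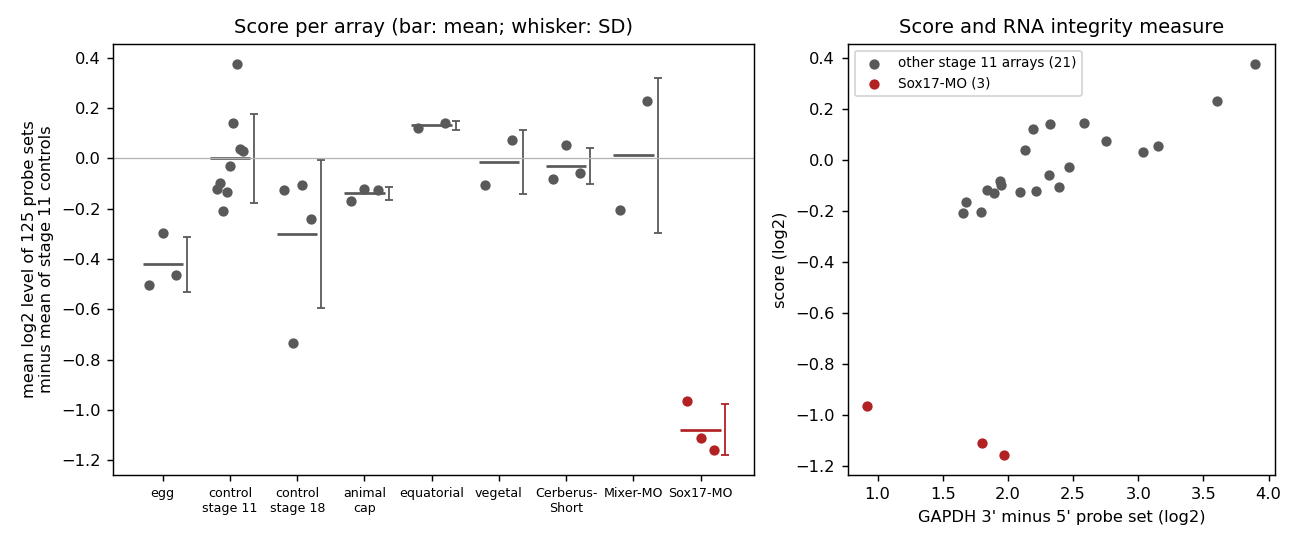
Left, the member score of each array (points; bar, mean; whisker, SD) by group; right, the score of the 24 stage 11 arrays against the GAPDH 3' minus 5' log2 difference. The 3 Sox17-MO arrays lie between -1.16 and -0.96 and the other stage 11 arrays between -0.21 and 0.38. Among these other arrays, scores tend to be higher at higher GAPDH differences.

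With nodal signalling blocked, the members differed from controls about as often as all probe sets did. With Cerberus-Short, 0 of 124 tested members passed the test in either direction (limma, Benjamini-Hochberg adjusted p under 0.05). Over all 15436 tested probe sets 0.298% were called lower and 0.00648% higher, 0.304% in all, so the count of 0 is close to the background and is no result about the members. The unadjusted p was under 0.05 for 3 members, all lower, which is 2.42% against 2.04% of all tested. The median log2 difference was -0.01, with quartiles of -0.13 and 0.11, beside a median of 0.01 over all tested. This comparison uses the same controls as the choice of members, which favours members that are high in them and so pushes the difference downward. For 101 of the 124 (81.5%, against 79.9% of all tested) the 95% interval of the difference lay wholly above -0.75. A difference at or below that limit was found for 157 of all 15436 tested and for 1 member, Xl.24337.1.A1_at, at -0.87. Its Cerberus-Short values were 16.1, 31.9 and 9.48, which span most of the distance between Sox17-MO and control.

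Values on the same arrays are given here for the transcripts lowered by Sox17-MO that were higher in vegetal explants. Of the 28 tested, 7 were lower with Cerberus-Short (25.0%), their median difference was -0.57, and 12 were at or below -0.75, beside 157 of all 15436 tested. Of the 15 tested that were higher in caps, 0 were called and the median was -0.09. These lists share the controls and the Sox17-MO criterion with the 125 and differ from them in the vegetal and cap limit. The difference between the lists was not tested. Each Cerberus-Short array shares its title letter with 1 control, and these pairs did not all run the same way. In the D pair the Cerberus-Short array was lower for 50 of the 125 members, with a median log2 difference of 0.03, and 47.1% of all probe sets were lower. In the f pair it was lower for 61, with a median of 0.02, and 45.3% of all were lower. In the H pair it was lower for 90, with a median of -0.17, against 45.1% of all, and 16 members were at or below -0.75. The count of 16 was not taken over all probe sets, so it is not read as a trait of the members. The controls in these pairs are among those that chose the members.

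The Mixer morpholino also gave 0 calls among the 124 members (limma, adjusted p under 0.05), beside 0.0259% lower and 0.0389% higher over all tested, 0.0648% in all. The unadjusted p was under 0.05 for 20 members, 12 lower and 8 higher, which is 16.1% against 8.08% of all tested. In the other lists lowered by Sox17-MO this share was larger. It was 28.6% of the 28 that were higher in vegetal explants and 40% of the 15 that were higher in caps. The controls here are again those that chose the members. The median log2 difference was 0.07, and the range from -1.99 to 2.15 was wider than with Cerberus-Short. At or below -0.75 were 6 of the 124 tested members, beside 644 of all 15436 tested, so this count is no result about the members. Xl.5386.1.A1_at, which was not tested because of its egg values, is not in the count. It held 80.9 and 73.1 in Mixer-MO embryos against a control lowest of 142.8, a log2 difference of -1.80. The 2 lowest members that could be tested are given here although they missed the threshold. Xl.1249.2.S1_a_at held 24.4 and 23.1 in Mixer-MO embryos against a control lowest of 44.8, median of 89.9 and highest of 165.5, a log2 difference of -1.99 ± 0.53 (SE; limma, adjusted p = 0.261). Its Sox17-MO values of 26.9, 40.5 and 24.5 were similar, and the Cerberus-Short values of 120.8, 120.7 and 34.2 were not, apart from replicate 3. Xl.5479.1.A1_at held 53.7 and 268.3 against a control lowest of 224.1, median of 453.1 and highest of 799.9 (log2 difference -1.90 ± 0.53, SE; limma, adjusted p = 0.331). Its 2 Mixer-MO arrays disagree, and the second lies within the control range.

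The pair of Mixer-MO arrays differed across the members as a whole. Replicate 2, of letter J, was above replicate 1 for 100 of the 125, with a median gap of 0.47, and the member scores were 0.23 and -0.21. The GAPDH difference was 3.60 in replicate 2 and 1.79 in replicate 1. The count of 100 was not taken over all probe sets, so it is not read as a trait of the members. The highest Mixer-MO difference, 2.15, came from Xl.18706.1.A1_at, which held 39.6 and 59.9 in Mixer-MO embryos. Among controls it held 64.2 in replicate 7, the J array, and 43.2 in replicate 8, whose title has no letter, like that of Mixer-MO replicate 1. The other 7 controls lay between 6.47 and 7.60, and eggs, all of letter L, held 7.88, 26.2 and 8.14. What these high arrays share was not tested. In the Sox17-MO arrays Xl.18706.1.A1_at held 6.42, 6.43 and 6.24, close to the 7 low controls. Its Sox17-MO difference of -0.78 therefore rests on control replicates 7 and 8.

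**Figure D4:**
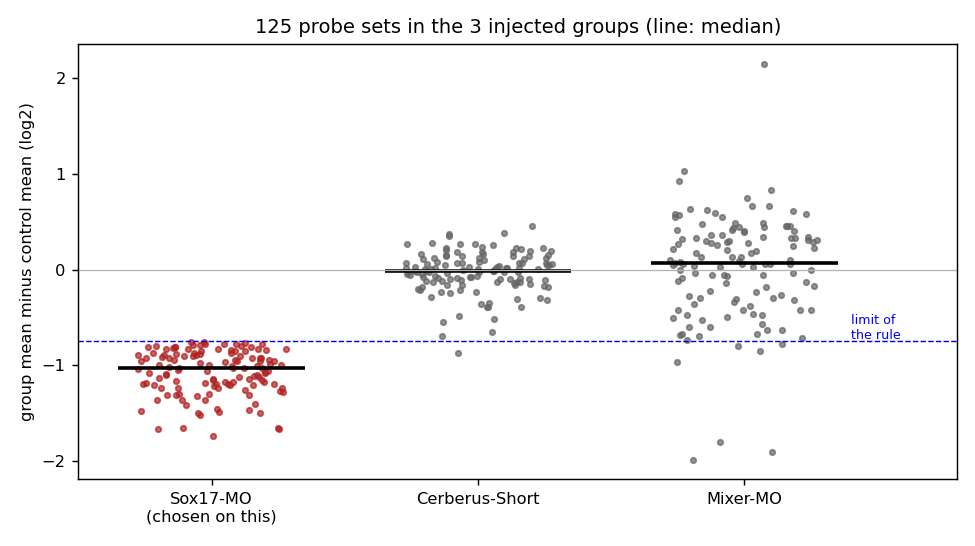
Difference of each injected group from the 9 stage 11 controls (log2) for the 125 probe sets (points), with medians as lines and the limit of the rule at -0.75 as a dashed line. Sox17-MO values lie below the limit by choice, Cerberus-Short values gather around a median of -0.01, and Mixer-MO values spread from -1.99 to 2.15.

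Setting Cerberus-Short and Mixer-MO against each other uses means from arrays that did not choose the members. Its test still pools the spread over all 31 arrays, including those that chose them. In that comparison 0 of 124 members passed (limma, adjusted p under 0.05; the lowest adjusted p was 0.158), against 0.207% of all tested, of which 0.175% were lower and 0.0324% higher with Cerberus-Short. The unadjusted p was under 0.05 for 16 members, 8 in each direction, and 9.50% of all tested reached this against 12.9% of members. The median log2 difference was -0.14, and over all tested it was 0.03. A miss of the threshold with 3 and 2 arrays does not show that the groups are alike, and the median standard error was 0.34.

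How the members' Sox17-MO arrays lay against the other groups is given as a description, since low Sox17-MO arrays chose the members and groups of 2 to 4 arrays differ in how readily they are cleared. The 3 Sox17-MO arrays were below all 21 other stage 11 arrays, controls included, in 72 of the 125 members and below all 28 other arrays in 26. Over all 15491 probe sets these shares were 0.710% and 0.213%. They lay below all Cerberus-Short arrays for 106 members (4.59% of all probe sets), below both Mixer-MO arrays for 109 (16.5%) and below both equatorial arrays for 122 (14.6%). For vegetal explants the count was 103 (20.5%), for caps 102 (10.7%), for eggs 74 (22.2%) and for stage 18 embryos 59 (17.9%). Nothing is read from these counts.

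In the explants the mean member level was close to that of the whole gastrula. The vegetal minus cap difference, limited by the rule to between -1 and 1, had a median of 0.17, and 71 of the 125 lay within 0.5. The member score was -0.02 ± 0.13 (SD, n = 2) in vegetal explants, -0.14 ± 0.03 (SD, n = 3) in caps and 0.13 ± 0.02 (SD, n = 2) in equatorial explants. Both equatorial arrays lay within the control range for 101 members (80.8%, against 68.9% of all probe sets). For vegetal explants this held for 58 (46.4%, against 47.9%) and for caps for 51 (40.8%, against 57.6%). Both Mixer-MO arrays lay within the control range for 49 members (39.2%, against 53.9%), all 3 Cerberus-Short arrays for 64 (51.2%, against 52.3%) and all 3 eggs for 26 (20.8%, against 39.1%).

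The rule limited the vegetal minus cap difference of the members but not of all tested probe sets. The shares below are therefore a description. Equatorial explants were set against the mean of vegetal and cap explants, not their difference, in a test that shares these arrays with the rule. In it 2 of 124 members were higher (1.61%) and 0 lower (limma, adjusted p under 0.05 and at least 2-fold), against 0.311% higher and 0.168% lower over all tested, 0.479% in all. The unadjusted p was under 0.05 for 15 higher and 1 lower members, together 12.9% against 7.47% of all tested. In the Sox17-lowered list that was higher in vegetal explants, 2 of 28 were called higher and 3 lower (17.9% in all). In the list that was higher in caps, 1 of 15 was called higher and 0 lower (6.67%). Both called members were low at either end of the embryo and near the control level in the equatorial belt, which forms mesoderm. Xl.523.1.S1_at held 38.5 and 55.6 in equatorial explants, 12.0 and 11.95 in vegetal explants, and 10.6, 11.4 and 9.27 in caps. It was 4.14-fold higher in the equatorial arrays (log2 2.05 ± 0.34, SE; limma, adjusted p = 0.00278), and no arrays overlap. Its Sox17-MO level, at 20.4, 19.9 and 22.6, lay between these explants and the controls, which ran from 28.8 to 66.5 with a median of 38.1. The second was Xl.24337.1.A1_at, with 41.4 and 43.8 in equatorial explants, 6.76 and 10.2 in vegetal explants and 10.1, 18.0 and 8.76 in caps. That difference was 4.33-fold (log2 2.12 ± 0.38, SE; limma, adjusted p = 0.00459). All of these values are low, so the folds are uncertain in size, and without equatorial replicate 2 neither passed (adjusted p = 0.217 for both). With a pseudocount of 16 added to the intensities, the log2 difference was 1.20 for the former and 1.17 for the latter.

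Over development the members split in both directions, as all tested probe sets did. Eggs and stage 18 embryos had no part in the choice, though the pooled spread of the test includes arrays that did. All 3 eggs carry title letter L, which no other array has, so stage and letter cannot be told apart in any egg comparison. Between eggs and stage 18 embryos 35 of 124 members were higher at stage 18 (28.2%) and 32 lower (25.8%). That is 54.0% called in either direction. Over all tested probe sets 19.0% were higher and 21.9% lower, 40.9% in all (limma, adjusted p under 0.05 and at least 2-fold). The members were brighter than probe sets at large, with 11.2% of members below a control level of 6 against 47.2% of all. The part of brightness in the share called was not tested. The other lists lowered by Sox17-MO were called more often. The shares were 85.7% of the 28 that were higher in vegetal explants and 73.3% of the 15 that were higher in caps. The median log2 difference was 0.04 in members and 0.02 over all tested, so the shifts in both directions were balanced. Xl.6298.1.A1_x_at, whose suffix marks probes that may bind other transcripts, held 58.6, 43.4 and 53.2 in eggs and 1945, 616.5, 1430 and 1231 at stage 18. It rose 23.5-fold (log2 4.55 ± 0.40, SE; limma, adjusted p = 7.15e-10). Xl.1079.1.S1_at rose 20.4-fold, from 110.0, 42.7 and 96.6 in eggs to 1458, 1307, 1526 and 2077 at stage 18 (limma, adjusted p = 1.51e-10). In both, all stage 18 arrays lay above all eggs.

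Falls from egg to stage 18 were as clear. Xl.19118.1.A1_at held 1733, 1616 and 1282 in eggs and 120.6, 61.5, 123.3 and 93.3 at stage 18, a 15.9-fold fall (log2 -3.99 ± 0.47, SE; limma, adjusted p = 9.25e-08). Its Sox17-MO values of 83.1, 94.6 and 92.6 lay within the stage 18 range and below the controls, whose lowest was 137.6, median 166.1 and highest 520.5. Xl.6818.1.A1_at fell 10.3-fold, from 366.1, 295.2 and 336.4 in eggs to 37.0, 24.0, 32.1 and 37.6 at stage 18 (limma, adjusted p = 3.00e-09). Its Sox17-MO values were 75.8, 45.2 and 36.1, against a control lowest of 76.0, median of 117.1 and highest of 197.5. RNA held in the egg is maternal, made before fertilisation. A higher egg level is what loss of maternal RNA would give, and a low egg level what transcription in the embryo would give. Only levels were measured, so neither loss nor synthesis was tested.

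The steps on either side of the gastrula use the controls that chose the members, which favours lower values elsewhere. Between egg and control, 33 members were lower in the egg (26.6%, against 10.5% of all tested) and 18 higher (14.5%, against 11.4%). The other lists lowered by Sox17-MO were called lower in the egg more often. The shares were 57.1% of the 28 that were higher in vegetal explants and 60% of the 15 that were higher in caps. Xl.1202.1.S1_at was nearly silent in eggs, at 22.9, 17.1 and 19.9, and one of the brightest members in controls, with a lowest of 1564, a median of 2268 and a highest of 2794. The egg was lower by log2 6.76 ± 0.38 (SE; 108-fold, limma, adjusted p = 1.75e-13), and Sox17-MO embryos kept 931.4, 1263 and 1016. Xl.6298.1.A1_x_at was 22.3-fold lower in the egg than in controls, whose lowest was 611.2, median 1243 and highest 1781. Among maternal members, Xl.19118.1.A1_at was 7.36-fold higher in the egg than in controls. Xl.3351.1.S1_at was 6.61-fold higher, at 1795, 1379 and 1658 against a control lowest of 123.0, median of 233.9 and highest of 521.9 (limma, adjusted p = 9.89e-07).

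From the gastrula to stage 18, 12 members rose (9.68%, against 12.2% of all tested) and 18 fell (14.5%, against 14.2%). Xl.8589.1.S1_at rose 4.79-fold, to 1174, 461.6, 1188 and 1517 from a control lowest of 144.2, median of 193.9 and highest of 419.9 (limma, adjusted p = 3.94e-07). Xl.149.1.S1_at rose 3.57-fold, to 1176, 704.6, 1286 and 1581 from a control lowest of 231.3, median of 330 and highest of 469.7. Stage 18 replicate 2 was the lowest of its group in both. Xl.1202.1.S1_at fell 9.49-fold, to 695.9, 63.4, 239.2 and 245.8 (limma, adjusted p = 1.37e-08), so that of these 3 stages it was highest in the gastrula. The size of this fall rests in part on stage 18 replicate 2, without which the log2 difference was -2.64 in place of -3.25. Xl.16001.1.S1_at fell 5.43-fold, to 18.3, 11.6, 21.5 and 27.2 from a control lowest of 64.9, median of 96.9 and highest of 179.1.

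Taking both steps, 52 members (41.9%) were called at neither, against 58.5% of all tested. A low egg level with no call afterwards was found for 26 members (21.0%, against 6.76%), and a high egg level with no call afterwards for 16 (12.9%, against 8.31%). Another 10 rose and 11 fell only after the gastrula (8.06% and 8.87%, against 9.83% and 9.76%). Lower in the egg and at stage 18 than in the gastrula were 5 members (4.03%, against 2.09%). The other 4 members were split between a rise at both steps and a fall at both steps. The surplus of low egg levels lies in the direction that the choice of high controls favours. Xl.5386.1.A1_at was left out of the tests because the scale of 2 egg values was undecided. At the scale nearer to the median of its settled values, its eggs held 9.96, 9.82 and 10.7 against 142.8 to 426.0 in controls. The last of these egg values was settled by its written form.

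**Figure D5:**
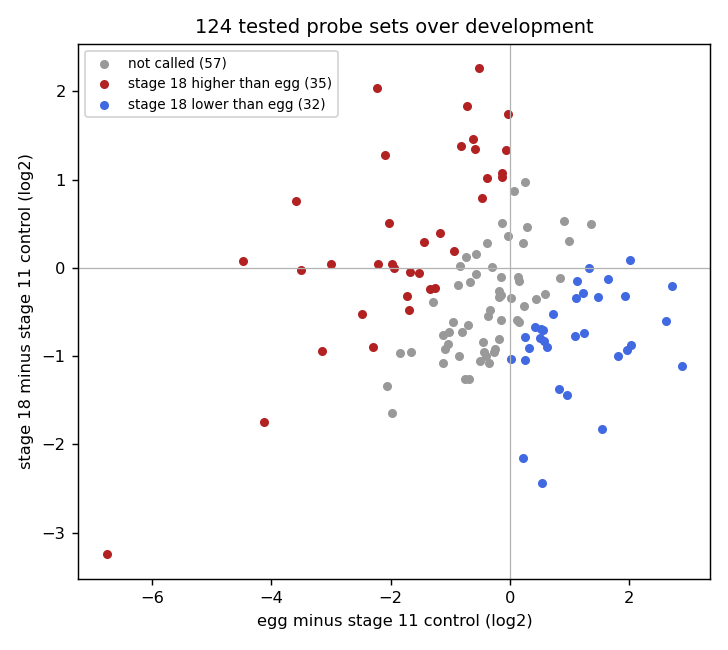
Egg minus control against stage 18 minus control (log2) for the 124 tested members, coloured by the call of stage 18 against egg. The 35 that were higher at stage 18 reach -6.76 on the egg axis, and the 32 that were lower lie at 0.02 or more on it.

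Other probe sets made for the same array cluster give a second look at some members. The 125 fall in 124 clusters by the number in the identifier, and 14 members have other probe sets in their cluster that are not members, 16 in all. Of these 16, 14 were lower with Sox17-MO than in controls, 7 by 0.75 or more, and the median difference was -0.70. Over all probe sets 43.6% were lower and 3.10% lower by 0.75 or more. The partner of Xl.8589.1.S1_at, Xl.8589.2.A1_at, was at -1.15 and below every control, and was not a member because of a vegetal minus cap difference of -1.20. The partner of Xl.1079.1.S1_at, Xl.1079.2.A1_at, was at 0.04, against -0.89 for the member. Over the 16 partners the vegetal minus cap difference ran from -2.11 to 1.36. Some partners thus lay outside the limit of 1 that the members met, in both directions, and others lay within it. The small vegetal minus cap difference of the members was therefore not shared by every probe set of their clusters. Partners may share probes or measure other transcripts of the cluster, and they were on the same arrays, so they are no independent replicate. Plain identifiers ending in _at made up 118 of the members (94.4%, against 90.7% of all probe sets), 2 members carried the _x_at suffix (1.60%, against 3.58%) and 1 the _s_at suffix, which marks probes shared between transcripts.

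Among probe sets outside the 125, the profile over all 31 arrays most like the mean of the members was that of Xl.8903.1.S1_a_at (Pearson r = 0.79). It belongs to the 1 cluster with 2 members, and fell short only in that a control overlapped its Sox17-MO arrays, at a difference of -1.27. The next was Xl.6982.1.A1_at (r = 0.75), at a difference of -0.66. These correlations share the arrays and the Sox17-MO step with the choice of members.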

How the data were processed

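Total RNA was hybridised to Affymetrix Xenopus laevis arrays, 1 per sample. Per the deposited checklist, the authors scaled arrays to a target in GeneChip Operating Software and summarised them by RMA in GeneSpring, and RMA is also named in the submitters' processing notes. The deposited values are linear intensities. From 1000 upward the deposited numbers carry a digit-group mark that looks like a decimal point. Of 483941 values, 438140 were settled by size and written form (below 3.5, or 10 and more with 3 decimals, or a final 0, was multiplied by 1000), and 45181 were assigned to the level of their probe set; 3.76% were restored to 1000 or more. A total of 120 control probe sets were left out, 15491 remained for the rule, and 55 with an undecided value were not tested, leaving 15436.

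A linear model of log2 intensity (limma 3.58.1, R 4.3.3; lmFit and eBayes, two-sided) had 1 mean per group over 31 arrays, 22 residual degrees of freedom, Benjamini-Hochberg over all tested probe sets, threshold 0.05, with at least 2-fold for tissue and stage comparisons. Groups came from the condition named in the labels. Each sample came from 1 mating, but which arrays shared one is not given, and the p-values reflect only the spread among these arrays. The members and lists were chosen with earlier results of these data known. The text names, per comparison, the called members with the largest change and no overlap of groups, and the members with the largest Sox17-MO falls, at most 2 per direction printed because none could be paired with a gene; members named for Mixer-MO, partner probe sets and single probe sets with unusual values were named after their values were seen. Gene lists, and with them the targeted genes, were not used here. The model was checked on simulated data. Alternatives covered normalization, a pseudocount, a filter on low values, blocks by replicate number and title letter, variance trend, array weights, the arrays fitted, and each array left out.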

Additional observations from a re-analysis of the deposited data

Results flagged for a closer look

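Xl.5386.1.A1_at in stage 18 replicate 2 lay far from the other arrays of its group, with a log2 level of 6.40 (intensity 84.3) against 256.1, 251.4 and 238.4 in the other replicates. The gap to the nearest of them was 0.94 of the whole range of the group. This probe set is 1 of 15 members flagged in the same array. Chance alone marks about 1 in 20 groups in this way.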

How the results depend on the processing

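Of 413 values of 20 named differences under the alternatives, 0 reversed and 409 kept their call; the 4 losses were all in the equatorial comparison. Of the 79 member counts under alternatives other than leaving out an array, 74 stayed within 1.5 times the reported count. The 5 exceptions follow. Equatorial calls went from 2 to 0 with the low filter of 60%, which drops both, to 0 without probe sets decoded from their other values, which also drops both, and to 1 with the compared groups alone. With the BioReplicate number as a replicate block, calls went from 0 to 2 for Cerberus-Short against Mixer-MO and from 0 to 2 for Mixer-MO against control; the numbers do not pair the samples, since the residuals of 88 same-numbered pairs of arrays had a median correlation of 0.03, while 30 pairs sharing a title letter had a median of 0.32, and the 7 of these that join an injected and a control array had 0.50 to 0.85. When arrays of 1 title letter were treated as a random block, 61 members were called between stage 18 and egg, 49 between egg and control and 27 between stage 18 and control. Leaving out 1 array gave 63 to 70 calls for stage 18 against egg, 47 to 57 for egg against control, 25 to 37 for stage 18 against control, 0 to 2 for the equatorial comparison (0 without equatorial replicate 2, 1 without replicate 1), 0 to 1 for Mixer-MO against control (1, higher, without control replicate 7, the J array), and 0 to 0 for Cerberus-Short against control and against Mixer-MO. Of the 125 members, 112 to 125 still met the rule without 1 array. Without both J arrays, an alternative chosen after seeing the data, there were 0 calls for Mixer-MO against control and 51 for egg against control, as reported. Folds at low intensities are uncertain in size.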

Other observations

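Stage 18 replicate 2 stood apart from its group across the members. It was the lowest of the 4 arrays for 82 of the 125, with a member score of -0.73 against -0.24 to -0.11 in the others. By Dixon's ratio it was an outlier for 15 members, where chance marks about 1 in 20 groups, and this held for no other stage 18 array. Its beta-actin 3' minus 5' difference was 0.38 against -2.45 to -2.03 in the other stage 18 arrays, and its part in the stage 18 values was not tested. Without it 63 members were called between stage 18 and egg, in place of 67. The counts of lowest and outlying values were not taken over all probe sets, so they are not read as a trait of the members.

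Among the 9 controls 4 such outliers were found over the 125 members, 2 each in replicates 7 and 9. Replicate 7 was the highest control for 49 members. These counts too were not taken over all probe sets.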
